A study of Homo sapiens with 4 samples.

Results

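The genes described are the constant segments of the immunoglobulin kappa, lambda and alpha chains and the J chain in ARP-1 cells, a line grown from human multiple myeloma. They were chosen by name: IGKC, IGLC1, IGLC2, IGLC3, IGLC5, IGHA1, IGHA2 and JCHAIN. All 8 had a row among the 15201 genes measured, and all 8 reached the level needed for testing, 1 FPKM averaged across libraries. RNA sequencing compared cells resistant to carfilzomib, an inhibitor of the proteasome (CfzR, 2 libraries), with wild-type cells (WT, 2 libraries) of the same line. The labels give no dose, no length of drug exposure and no number of clones for the resistant cells, and do not say whether replicates were separate cultures. The spread behind each p-value is therefore that of these libraries alone and may be technical. RNA was taken with TRIzol and made into mRNA libraries in both groups, per the labels' protocols.

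An antibody is built from heavy chains and light chains. The heavy chain locus lies on chromosome 14, the kappa light chain locus on chromosome 2 and the lambda locus on chromosome 22. In each, V and J segments (and D segments for heavy chains) are joined in the DNA, and the joined exon is spliced to a constant segment, which sets the chain class. A normal B cell or plasma cell makes heavy chains paired with either kappa or lambda light chains, and myeloma cells usually keep the chains of the plasma cell they came from. The alpha heavy chain makes IgA, in the subclasses IgA1 and IgA2, and the J chain is the small protein that links IgA monomers into dimers. Plasma cells secrete these products in bulk, so folding and disposal of immunoglobulin is a main load on their endoplasmic reticulum and proteasome.

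The lambda constant genes are close copies of each other, and their sequences are shown because they set how well reads can be assigned between them. Positions are those of GENCODE release 29 on GRCh38, matched by gene ID, since the sources used here do not name the build behind the values. The sequences come from the GENCODE transcripts. IGLC1 lies at chr22:22895375-22895834, IGLC2 at chr22:22900976-22901437 and IGLC3 at chr22:22906342-22906803, all on the plus strand, each as a single exon that holds the end of the coding region and a 3′ untranslated end. IGLC5, at chr22:22915635-22915927, is annotated as a pseudogene. The first 120 coding bases are printed for IGLC1 (chr22:22895375-22895494), IGLC2 (chr22:22900976-22901095) and IGLC3 (chr22:22906342-22906461), with the 98 bases of IGLC5 (chr22:22915635-22915732) that align to IGLC1 from its base 12. Capitals mark bases that differ from IGLC1.
IGLC1: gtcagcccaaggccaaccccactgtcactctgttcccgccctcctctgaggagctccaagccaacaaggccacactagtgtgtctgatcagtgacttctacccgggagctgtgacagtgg
IGLC2: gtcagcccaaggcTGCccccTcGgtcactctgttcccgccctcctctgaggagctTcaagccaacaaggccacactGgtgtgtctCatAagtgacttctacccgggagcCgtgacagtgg
IGLC3: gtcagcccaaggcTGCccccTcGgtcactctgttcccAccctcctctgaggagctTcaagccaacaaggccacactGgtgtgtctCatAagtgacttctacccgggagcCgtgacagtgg
IGLC5: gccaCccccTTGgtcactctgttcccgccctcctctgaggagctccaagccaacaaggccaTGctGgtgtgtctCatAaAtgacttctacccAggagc
Over the 317 coding bases, IGLC2 and IGLC3 differed at 3 positions, IGLC1 and IGLC2 at 15, and IGLC1 and IGLC3 at 16. IGLC5 differed from IGLC1 at 39 of 293 aligned bases. IGKC (chr2:88857161-88857683, minus strand, a single exon) shared only 62.3% of 300 aligned coding bases with IGLC1, with no identical run over 8 bases.

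IGLC1 also shares its exon with another gene. IGLL5, a lambda-like gene of the same locus (chr22:22887780-22896107), is annotated with a last exon that covers IGLC1, and 451 of the 460 bases of the IGLC1 transcript stand unbroken in the IGLL5 transcript. The join is shown with the last 30 bases of the second exon of IGLL5 (chr22:22893789-22893818) in lower case and the first 30 bases of the shared exon (chr22:22895375-22895404) in capitals.
IGLL5: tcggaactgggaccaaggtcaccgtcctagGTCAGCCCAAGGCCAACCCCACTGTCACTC
Reads that lie wholly within the shared run cannot be told apart between the 2 genes, and their division rests on the authors' quantification.

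The alpha constant genes differ in length at the hinge, the flexible stretch that opens the second constant exon. IGHA1 (chr14:105703995-105708665) and IGHA2 (chr14:105583731-105588395) lie on the minus strand, with several exons each. The start of exon 2 is shown for IGHA1 (chr14:105708055-105708144) and IGHA2 (chr14:105587824-105587874). Capitals mark the 39 bases that have no counterpart in IGHA2 in the alignment.
IGHA1: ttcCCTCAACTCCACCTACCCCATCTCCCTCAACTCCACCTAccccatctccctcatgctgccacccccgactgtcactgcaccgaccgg
IGHA2: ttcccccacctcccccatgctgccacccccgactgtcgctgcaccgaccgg
Outside these bases, the coding regions differed at 40 of 1020 aligned bases, with identical runs of up to 115 bases. The division of reads between IGHA1 and IGHA2, and among the lambda genes, is therefore uncertain. JCHAIN (chr4:70655541-70681817, minus strand) is a gene of several exons.

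Levels are in FPKM, fragments scaled to transcript length and to the fragments mapped in a library. Comparisons between genes and libraries rest on that scaling, and the libraries differed in summed FPKM and in a trend with length, as given with the library checks. IGKC was the most abundant of the 8 genes in every library, followed by JCHAIN, IGLC1, IGHA2, IGHA1, IGLC2, IGLC5 and IGLC3. This order held in 4 of 4 libraries. The ranges of neighbours in the order did not overlap over the 4 libraries, except for IGLC2 and IGLC5, where the lowest IGLC2 value (13.4) lay under the highest IGLC5 value (33.5). Together the 8 genes made up 3.02% and 2.89% of the summed FPKM in CfzR replicates 1 and 2, against 2.36% and 1.83% in WT replicates 1 and 2. The summed FPKM of all genes was lower in both CfzR libraries, which raises such shares. In FPKM the sum of the 8 genes overlapped between groups, at 20324 and 25412 in CfzR and 21711 and 17479 in WT.

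**Figure D1:**
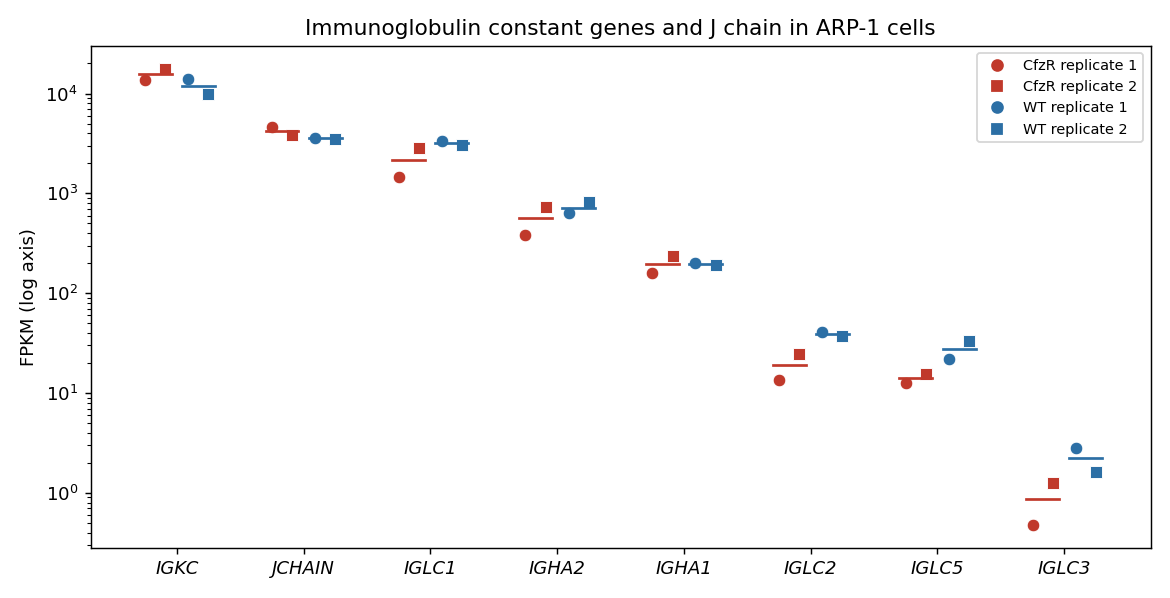
FPKM on a log axis for the 8 genes, ordered by mean level; red points are CfzR libraries, blue points WT libraries, circles replicate 1, squares replicate 2, and bars group means. IGKC stands highest in each library, and the 4 lambda genes have both CfzR points under both WT points.

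The libraries were checked before the comparison. Of the 10 plasma cell markers listed, 9 were measured, with summed levels of 2197 and 2428 FPKM in CfzR and 2428 and 2604 FPKM in WT (IGKC and JCHAIN not counted). CIITA was the 1 marker measured of 7 for mature B cells (3.32 to 3.90 FPKM) and CD68 the 1 of 6 for myeloid cells (0.681 to 2.10 FPKM). KRT8 and KRT18, 2 of 5 epithelial markers, summed to 2.10 and 3.70 FPKM in CfzR and 6.28 and 6.79 FPKM in WT. Of the markers of T and NK cells, of erythroid cells and of stroma and endothelium, 0 were among the genes analysed. CfzR replicate 1 stood apart, with a summed FPKM of 673265, against 877849 in CfzR replicate 2 and 918617 and 955284 in WT. Over 12896 genes, its log2 difference from CfzR replicate 2 had a Spearman correlation of 0.466 with transcript length and -0.35 with GC share. The same correlations for WT replicate 1 minus 2 were 0.146 and 0.0793. The genes share libraries, so these are descriptions. Sequencing depth is unknown, since the table holds no counts.

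Chain usage was compared between resistant and wild-type cells. Within the light chains, kappa held a larger share of the signal in both CfzR libraries than in either WT library, by 10.1 percentage points on average. The lambda constant genes stood lower in both CfzR libraries than in both WT libraries, while IGKC and JCHAIN had higher means in CfzR and the alpha genes overlapped between groups. No single gene passed the test across all genes.

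Of the 8 genes, 0 passed an adjusted p of 0.05 with limma, where 47 of 13411 genes tested did (0.35% in either direction, 0.246% with a positive and 0.104% with a negative fold change). IGLC2, IGLC3 and IGLC5, 3 of the 8, had an unadjusted p under 0.05, against 11.1% of all genes. IGLC3 averaged 0.873 FPKM in CfzR and 2.22 FPKM in WT. It thus passed the filter of 1 FPKM only through WT, where it stood higher, and its place in these counts is not support. The groups did not overlap for 5 of the 8, against 44.7% of all genes. Among these, 4 were lower in CfzR, against 22.6% of all genes, and 1 was higher, against 22.1%. The 4 lower genes are the lambda rows, near copies in a single locus with uncertain division of reads. They are therefore not 4 separate observations. The median log2 fold change of the 8 genes was -0.54, against -0.02 over all genes tested. That median rested largely on CfzR replicate 1. Without this library it was -0.065, with 4 of 8 positive, and without CfzR replicate 2 it was -0.971. Under quantile normalization it was -0.192, and after the length and GC correction -0.255. Resistant and wild-type cultures are bulk samples, so a change in the share of cells that make a chain and a change in RNA per cell cannot be told apart.

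IGKC, the kappa constant segment, stood at 13684 and 17706 FPKM in CfzR replicates 1 and 2, against 13828 and 9844 FPKM in WT replicates 1 and 2. CfzR replicate 1 lay between the WT libraries, so the groups overlapped. The means were 15695 ± 2844 FPKM in CfzR and 11836 ± 2817 FPKM in WT (SD, n = 2 each). The log2 fold change was 0.42 (SE 0.60, 95% interval -1.01 to 1.84, limma adjusted p = 0.794). It was 0.88 under quantile normalization and 0.71 under scaling without immunoglobulin genes. The latter sets libraries to equal sums over all other genes, so it also removes their difference in summed FPKM. The log2 fold change was 0.17 without WT replicate 2, 0.23 without CfzR replicate 2 and 0.66 without WT replicate 1. IGKC ranked 1 of 15201 genes in both CfzR libraries, and 3 and 5 in WT replicates 1 and 2. As a share of the summed FPKM it held 2.03% and 2.02% in CfzR, against 1.51% and 1.03% in WT, and on that scale the groups did not overlap. The summed FPKM was itself lower in both CfzR libraries than in both WT libraries, which raises any such share in CfzR.

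IGLC1 carried nearly all lambda constant signal, 98.2% and 98.6% of it in CfzR and 98.1% and 97.7% in WT. Its level was 1467 and 2854 FPKM in CfzR replicates 1 and 2, against 3372 and 3065 FPKM in WT. Both CfzR libraries lay below both WT libraries, but replicate 2 only narrowly. The log2 fold change was -0.65 (SE 0.45, 95% interval -1.73 to 0.42, adjusted p = 0.599). Under quantile normalization it was -0.27, and under scaling without immunoglobulin genes -0.35. Without CfzR replicate 1 it was -0.17, and without CfzR replicate 2 it was -1.13, so the size rests largely on a single library.

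IGLL5 followed the same order, with 2045 and 2524 FPKM in CfzR and 2876 and 2939 FPKM in WT (log2 fold change -0.36, SE 0.38, adjusted p = 0.727). The ratio of IGLC1 to IGLL5 was 0.717 and 1.13 in CfzR, against 1.17 and 1.04 in WT. CfzR replicate 1 thus stood apart in how signal was divided between these overlapping genes, whose transcripts differ in length. The part of the length trend in this ratio was not tested. For IGLL5 the log2 fold change was -0.02 under quantile normalization, -0.14 after the length and GC correction and -0.20 without CfzR replicate 1.

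IGLC2, another functional lambda segment, had 13.4 and 24.4 FPKM in CfzR, against 41.3 and 37.6 FPKM in WT. The groups did not overlap, and the mean was 18.9 ± 7.72 FPKM in CfzR and 39.4 ± 2.60 FPKM in WT (SD, n = 2 each). The log2 fold change was -1.08 (SE 0.29, 95% interval -1.76 to -0.40, adjusted p = 0.245). With CfzR replicate 1 left out it was -0.67, and -1.49 with CfzR replicate 2 left out. Relative to IGLC1 it stood at 0.916% and 0.853% in CfzR, against 1.22% and 1.23% in WT. Both CfzR ratios lay below both WT ratios.

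The pseudogene IGLC5 had 12.6 and 15.5 FPKM in CfzR, against 22.1 and 33.5 FPKM in WT, without overlap (log2 fold change -0.91, SE 0.25, 95% interval -1.51 to -0.32, adjusted p = 0.256). IGLC3 was the least abundant, with 0.478 and 1.27 FPKM in CfzR and 2.81 and 1.63 FPKM in WT. Its log2 fold change was -0.79 (SE 0.32, adjusted p = 0.434), and it ran from -1.10 without CfzR replicate 2 to -0.48 without CfzR replicate 1. The added pseudocount weighs on a level this low, with -1.33 at a pseudocount of 0.1 and -0.30 at 5. It made up 0.0320% and 0.0438% of lambda signal in CfzR, against 0.0816% and 0.0520% in WT. The difference in that share was -0.0289 percentage points (exact permutation p = 0.333, adjusted 0.5), and -0.0141 without WT replicate 1 or -0.0437 without WT replicate 2. After the length and GC correction the groups overlapped in it (-0.0182, exact permutation p = 0.667). IGLC3 stood far below IGLC2 in every library, although the 2 differ at only 3 coding bases.

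The lower lambda levels were read beside the length trend of CfzR replicate 1, because all 4 lambda rows are short. After correction for transcript length and GC share, the log2 fold changes were -0.32 for IGLC1, -0.76 for IGLC2, -0.47 for IGLC3 and -0.57 for IGLC5. All 4 stayed negative and were smaller than before, by over 1.5 times for IGLC1, IGLC3 and IGLC5. For IGKC, a short transcript too, the corrected value was 0.68.

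Ratios within a library do not change when a whole library is rescaled. Of the light chain FPKM, with IGLL5 and IGLL1 left out, IGKC made up 90.2% and 85.9% in CfzR replicates 1 and 2. In WT replicates 1 and 2 it made up 80.1% and 75.8%. Every CfzR value lay above every WT value, and the means were 88.1% ± 2.98 in CfzR and 78.0% ± 3.01 in WT (SD, n = 2 each). The difference of 10.1 percentage points gave p = 0.333 in an exact two-sided permutation test. That is the smallest p that 2 libraries against 2 can give, so no ratio could reach 0.05. Benjamini-Hochberg adjustment over the 6 ratios tested gave 0.5. Expressed as a quotient, IGKC stood at 9.16 and 6.12 times the lambda sum in CfzR, against 4.02 and 3.14 times in WT. After the length and GC correction the difference in kappa share was 9.52 percentage points, and 12.8 when IGLL5 and IGLL1 were counted with lambda. Counting these genes lowers the kappa share itself in every library.

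**Figure D2:**
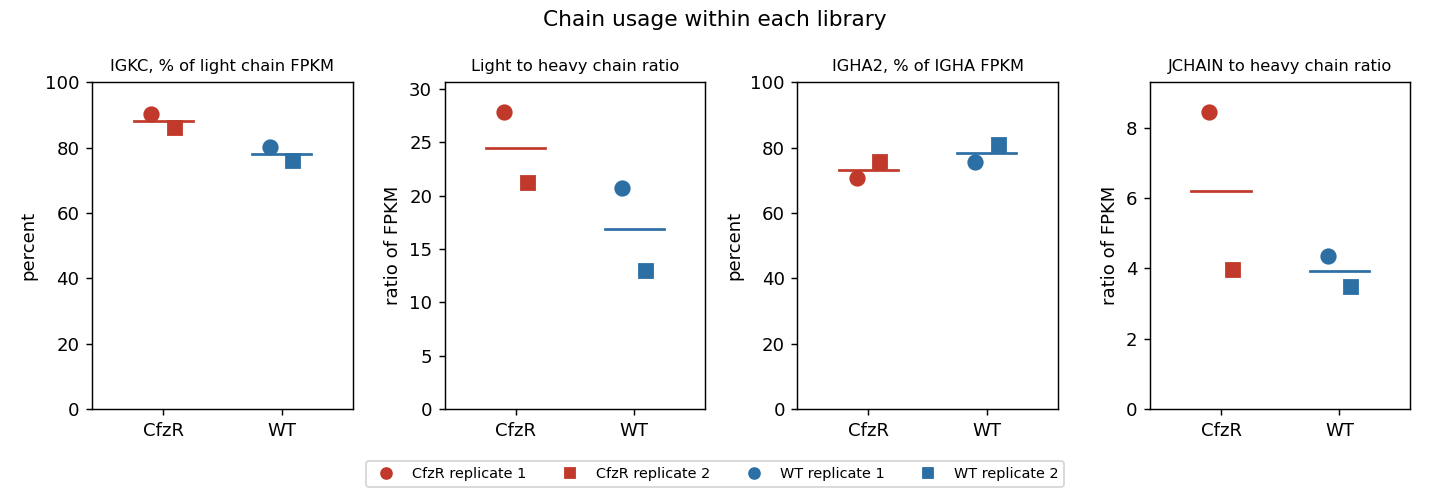
Chain usage per library as percent or as ratio of FPKM, with CfzR left of WT; points are libraries (circles replicate 1, squares replicate 2) and bars group means. The kappa share and the light to heavy ratio show no overlap between groups, whereas the IGHA2 share and the JCHAIN ratio overlap.

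For the heavy chain, IGHA2 exceeded IGHA1 in every library. IGHA2 had 386 and 736 FPKM in CfzR replicates 1 and 2, against 629 and 813 FPKM in WT replicates 1 and 2. The spread within CfzR covered the lower WT value (log2 fold change -0.42, SE 0.38, 95% interval -1.32 to 0.47, adjusted p = 0.680). Without CfzR replicate 1 the log2 fold change was 0.042. IGHA1 had 160 and 237 FPKM in CfzR, against 203 and 192 FPKM in WT, and its CfzR libraries lay on either side of the WT pair. Its log2 fold change was -0.02 (SE 0.27, 95% interval -0.65 to 0.61, adjusted p = 0.984), and the sign turned to 0.22 under quantile normalization and to 0.22 after the length and GC correction.

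IGHA2 made up 70.7% and 75.6% of alpha signal in CfzR, against 75.6% and 80.9% in WT. The log2 ratio of IGHA1 to IGHA2 was -1.45 ± 0.26 in CfzR and -1.86 ± 0.32 in WT (SD, n = 2 each; exact permutation p = 0.667, adjusted 0.667), and the difference of 0.40 ran from 0.18 to 0.63 with a library left out. The sum of the alpha genes was 545 and 973 FPKM in CfzR, against 832 and 1004 FPKM in WT, so the groups overlapped. CfzR replicate 1 held the lowest alpha signal of the 4 libraries.

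Light chain signal exceeded alpha chain signal many times over. The quotient of summed light to summed heavy chain FPKM was 27.8 and 21.2 in CfzR, against 20.8 and 12.9 in WT. The groups did not overlap, although CfzR replicate 2 and WT replicate 1 nearly met. The means were 24.5 ± 4.72 in CfzR and 16.8 ± 5.54 in WT (SD, n = 2 each; exact permutation p of the log2 ratio 0.333, adjusted 0.5). The difference in log2 ratio was 0.57. It was 0.37 without CfzR replicate 1, 0.23 without WT replicate 2 and 0.91 without WT replicate 1. The groups overlapped after the length and GC correction, and with IGLL5 and IGLL1 in the sums (exact permutation p = 0.667 for each). By class, kappa stood at 25.1 and 18.2 times the alpha sum in CfzR and 16.6 and 9.80 times in WT. Lambda went the other way, at 2.74 and 2.97 times in CfzR and 4.13 and 3.12 times in WT. CfzR replicate 2 and WT replicate 2 nearly met in it. The quotients by class were not tested.

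JCHAIN, which joins IgA monomers, had 4601 and 3838 FPKM in CfzR replicates 1 and 2, against 3613 and 3493 FPKM in WT replicates 1 and 2. The groups did not overlap, and the WT libraries lay close together. The log2 fold change was 0.24 (SE 0.42, 95% interval -0.75 to 1.24, adjusted p = 0.830). Relative to the alpha sum, JCHAIN stood at 8.44 and 3.94 in CfzR, against 4.34 and 3.48 in WT. The log2 ratio was 2.53 ± 0.78 in CfzR and 1.96 ± 0.23 in WT (SD, n = 2 each; exact permutation p = 0.667, adjusted 0.667). Without CfzR replicate 1 the difference in log2 ratio was 0.021, against 0.57 with it. For JCHAIN alone the log2 fold change was 0.13 after the length and GC correction, 0.80 under quantile normalization, 0.54 under scaling without immunoglobulin genes, and 0.11 without CfzR replicate 1 or 0.37 without CfzR replicate 2. The difference in log2 ratio was 0.22 after the length and GC correction, 1.12 without CfzR replicate 2, and 0.84 under quantile normalization, where the groups did not overlap (exact permutation p = 0.333). Relative to IGKC, JCHAIN stood at 0.336 and 0.217 in CfzR and 0.261 and 0.355 in WT, and the groups overlapped.

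**Figure D3:**
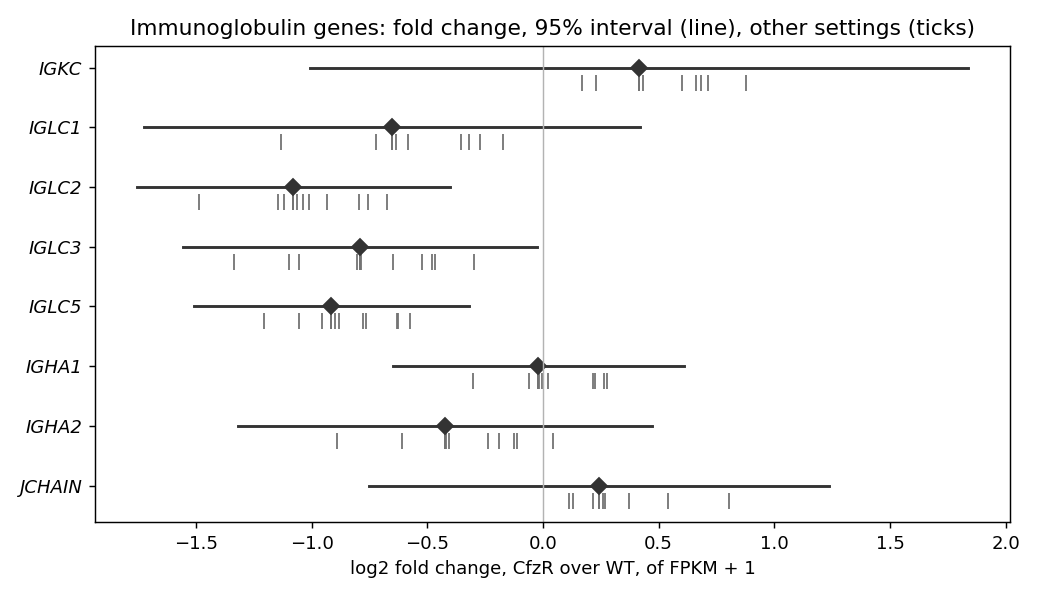
Log2 fold change of FPKM + 1, CfzR over WT, for the 8 genes; diamonds are the values from all 4 libraries, lines their 95% intervals from limma, and grey ticks the values under other settings. The intervals of IGLC2, IGLC3 and IGLC5 lie below 0, those of the other 5 genes include 0, and ticks of IGHA1 and IGHA2 fall on both sides of 0.

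The V segments measured were also those of the kappa locus. There were 10 IGKV rows, of which 7 passed the filter, and 9 of the 10 belong to the IGKV1 family. V rows of the lambda and heavy chain loci were not analysed here. IGKV1-13, annotated as a V pseudogene (chr2:89045995-89046466), led with 331 and 200.48 FPKM in CfzR, against 200.01 and 59.2 FPKM in WT. CfzR replicate 2 and WT replicate 1 were nearly equal. The log2 fold change was 1.23 (SE 0.55, adjusted p = 0.466). It made up 77.1% and 76.8% of IGKV signal in CfzR and 77.9% and 76.6% in WT, an almost fixed share while the IGKV sum ran from 77.3 to 430 FPKM. The other 8 rows of its family matched IGKV1-13 over 87.1% to 95.1% of aligned bases, and IGKV3-20 over 76.0%.

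IGKV1-39 was next, with 38.9 and 22.2 FPKM in CfzR, against 23.8 and 6.16 FPKM in WT (log2 fold change 1.19, SE 0.55, adjusted p = 0.485), and the groups overlapped. IGKV1-27 had 14.6 and 13.9 FPKM in CfzR, against 7.50 and 4.25 FPKM in WT, without overlap (log2 fold change 1.19, SE 0.27, adjusted p = 0.170). All 7 tested IGKV rows had a positive log2 fold change, also under TMM, quantile, immunoglobulin-free and length and GC scaling, with a median of 1.19. Without WT replicate 2, however, 5 of 7 were positive with a median of 0.36, and without WT replicate 1 the median was 1.92. With limma 0 passed. In 4 of the 7 the groups did not overlap and CfzR was higher, against 22.1% of all genes. The IGKV rows share a locus, and most are of a single family of similar sequence with uncertain division of reads. They are therefore not 7 separate observations. Relative to IGKC, the IGKV sum was 3.14% and 1.48% in CfzR and 1.86% and 0.785% in WT. Read placement between such similar segments is uncertain, and rearranged V exons can differ from the reference.

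Among other immunoglobulin genes, the surrogate light chain gene IGLL1 had 2.23 and 3.51 FPKM in CfzR, against 4.26 and 5.76 FPKM in WT (log2 fold change -0.64, adjusted p = 0.431). With CfzR replicate 1 left out, its log2 fold change was -0.40, and -0.36 once length and GC were corrected for. VPREB3, a relative of the surrogate light chain V part, had 1.20 and 4.05 FPKM in CfzR and 2.68 and 1.61 FPKM in WT (adjusted p = 0.932). Constant genes of gamma, mu, delta and epsilon chains were not analysed here.

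**Figure D4:**
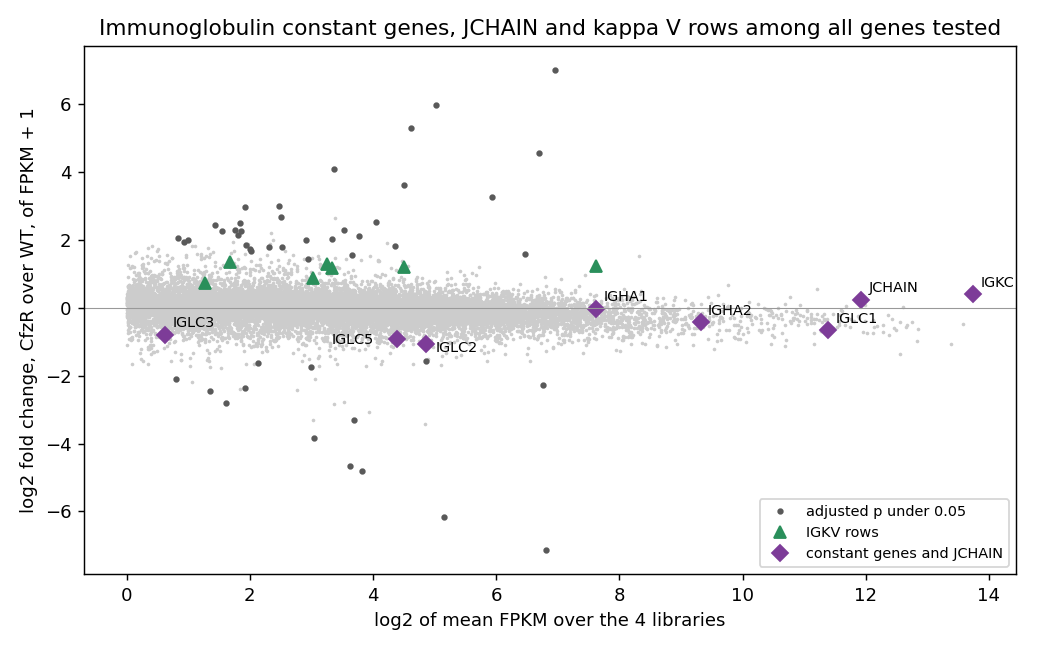
Log2 fold change of FPKM + 1, CfzR over WT, against the log2 of mean FPKM for the 13411 genes tested; grey points are genes, dark points those past an adjusted p of 0.05, diamonds the 8 genes and triangles the 7 IGKV rows. The IGKV rows lie above 0 and the lambda rows below it, and none of these is a dark point.

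Genes that act on immunoglobulin were counted in 6 lists, and 0 members of any list passed with limma, against 0.35% of all genes tested. Signs in these lists moved with the scaling. With libraries set to equal sums over genes other than immunoglobulin, 18 of 18 transcription and 14 of 16 RNA processing genes were positive. So were 27 of 31 folding and 16 of 18 recombination genes, beside a median of 0.24 over all genes. That setting also removes the lower summed FPKM of the CfzR libraries. Of 31 tested genes of folding and assembly, 21 had positive log2 fold changes, with a median of 0.18. A limma unadjusted p under 0.05 was found for 4 of the 31, against 11.1% of all genes. With a library left out, 20 to 25 were positive, and the median was 0.28 without CfzR replicate 1. The groups did not overlap for 17 higher and 3 lower members of that list, against 22.1% and 22.6% of all genes. The thioredoxin-like oxidoreductase TXNDC5 stood at 963 ± 153 FPKM in CfzR and 1572 ± 98.3 FPKM in WT (SD, n = 2 each; log2 fold change -0.71, adjusted p = 0.478, and -0.43 under quantile normalization). PPIB, a prolyl isomerase of the endoplasmic reticulum, averaged 995 ± 303 FPKM in CfzR and 1001 ± 107 FPKM in WT (SD, n = 2 each; adjusted p = 0.973). PDIA6, a disulfide isomerase, averaged 597 ± 9.96 FPKM in CfzR and 548 ± 39.7 FPKM in WT (SD, n = 2 each; adjusted p = 0.868).

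Of 18 tested regulators of immunoglobulin transcription, 9 were positive, with a median of -0.01. A limma unadjusted p under 0.05 was found for 1 of the 18, against 11.1% of all genes. The tally was 4 of 18 (median -0.12) without CfzR replicate 1 and 14 of 18 (median 0.17) without CfzR replicate 2. XBP1, the plasma cell secretory regulator, had 800 and 868 FPKM in CfzR, against 953 and 1084 FPKM in WT (log2 fold change -0.29, SE 0.30, adjusted p = 0.720), but its sign turned under quantile normalization (0.08) and under scaling without immunoglobulin genes (0.01). TCF3, an E protein that binds immunoglobulin enhancers, had 397 and 411 FPKM in CfzR, against 474 and 419 FPKM in WT (adjusted p = 0.836). IRF4, a factor that plasma cells need, averaged 245 ± 55.2 FPKM in CfzR and 224 ± 2.50 FPKM in WT (adjusted p = 0.873).

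Of 16 tested factors of RNA processing, 10 were positive (median 0.07). A limma unadjusted p under 0.05 was found for 0 of the 16, against 11.1% of all genes. After the length and GC correction 6 of 16 were positive (median -0.02), and without CfzR replicate 2 there were 8 of 16 (median 0.01). CPSF3, the nuclease that cuts pre-mRNA before polyadenylation, averaged 187 ± 60.8 FPKM in CfzR and 289 ± 135 FPKM in WT (adjusted p = 0.590). Of 16 genes listed for the B cell receptor and its signalling, only 5 were measured and 4 tested. All 4 were negative (3 of 4 under scaling without immunoglobulin genes or without CfzR replicate 2), with a median of -0.33. LYN, at -0.06, overlapped between groups. A limma unadjusted p under 0.05 was found for 0 of the 4, against 11.1% of all genes. PTPN6, a phosphatase that restrains that receptor, had 232 and 357 FPKM in CfzR, against 391 and 476 FPKM in WT (log2 fold change -0.58, adjusted p = 0.511). Its log2 fold change was -0.28 without CfzR replicate 1, -0.89 without CfzR replicate 2 and -0.29 under quantile normalization.

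Of 18 tested genes of switching and V(D)J recombination, 6 were positive (median -0.07). A limma unadjusted p under 0.05 was found for 1 of the 18, against 11.1% of all genes. Without CfzR replicate 2 there were 9 of 18 (median -0.03), and under quantile normalization the median was -0.01. XRCC6, the Ku70 end-joining protein, averaged 201 ± 18.1 FPKM in CfzR and 203 ± 19.7 FPKM in WT (adjusted p = 0.986). Of 10 genes listed for binding, carrying or modifying IgA, 4 were measured and tested. They include LGALS3, a lectin, and ST6GAL1, a sialyltransferase, so the list is wider than receptors. Of the 4, 3 were positive (median 0.30, or 0.16 without CfzR replicate 1). A limma unadjusted p under 0.05 was found for 1, against 11.1% of all genes. TFRC, the transferrin receptor, which also binds polymeric IgA1, had 14.1 and 9.23 FPKM in CfzR, against 6.22 and 7.33 FPKM in WT (log2 fold change 0.68, adjusted p = 0.379), and 0.40 was its log2 fold change without CfzR replicate 1.

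The genes whose levels followed these members most closely over the 4 libraries were found among 2282 genes of other kinds with a mean of at least 50 FPKM. Likeness was the root mean square difference of log2 values after each gene was centred on its mean. With only 4 values per gene and 2282 candidates, close matches can arise for any gene. Shared control was not tested. Closest to IGKC was TMEM258, a subunit of the complex that adds N-glycans, at 0.0224. It had 231 and 288 FPKM in CfzR, against 234 and 165 FPKM in WT. RPS28P7 and MKNK2 came next, at 0.0858 and 0.0925. Closest to IGHA1 were BLOC1S1, NRGN and XPO6, at 0.0156, 0.0222 and 0.0234. Closest to JCHAIN were EML2, CAPZA1 and EIF4G2, at 0.00774, 0.0142 and 0.0145.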

How the data were processed

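The authors deposited a single table of FPKM values with 15201 Ensembl gene IDs and a column per library. Per the submitters' processing notes the tools were STAR and Cufflinks. The sources used here give no version, genome build, annotation, strandedness or treatment of reads that match several places. Columns named for the drug were taken as CfzR, and the control columns as WT, the only other group. The lowest row mean was 0.500 FPKM, so rows under such a level were not analysed here. Symbols came from a table of gene IDs, and positions, lengths and sequences from GENCODE release 29 (GRCh38).

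Values were transformed to log2(FPKM + 1), which understates changes of low genes. The 13411 genes that averaged 1 FPKM or more were fitted in limma 3.58.1 (R 4.3.3; eBayes with a mean-variance trend), two-sided, with Benjamini-Hochberg adjustment over all of them and a threshold of 0.05. Intervals are 95%. Ratios of FPKM per library were compared by exact permutation (SciPy 1.17.1). Coding sequences were aligned with Biopython 1.88. The fit was also run on simulated data. There the spreads were shuffled over genes, which removes their link with level, so that run cannot check the mean-variance trend. The length and GC correction removed, in each library, the trend of deviations from the gene mean on splines with 4 degrees of freedom, for 12896 genes (96.2%).

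Named genes are the 8 members, the other measured immunoglobulin genes, up to 3 V segments per locus, and from each list the members past the threshold or else those with the highest means, of which some are printed. The 3 genes nearest to IGKC, IGHA1 and JCHAIN were also named. Members, lists and rules were chosen with earlier results of these data known.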

Additional observations from a re-analysis of the deposited data

How the results depend on the processing

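Over 14 alternative settings per gene, 105 of 111 values for the 8 genes kept their sign, though many of these could not change. The exceptions were IGHA1, at 0.22 under quantile normalization, 0.28 when libraries were scaled to equal sums without immunoglobulin genes and 0.22 after the length and GC correction, and both alpha genes with a library left out. Leave-one-out values ran from -0.30 to 0.26 for IGHA1 and from -0.89 to 0.042 for IGHA2. They ran from 0.17 to 0.66 for IGKC, -1.13 to -0.17 for IGLC1, -1.49 to -0.67 for IGLC2, -1.10 to -0.48 for IGLC3, -1.20 to -0.62 for IGLC5 and 0.11 to 0.37 for JCHAIN. IGLC3 was not tested under a filter at 5 FPKM. The filter settings, the fit without a mean-variance trend and the block by replicate number leave each fold change as it was. Where the groups do not overlap, leaving out a library cannot turn the sign either. The tally of signs is therefore no measure of how firm they are. All 42 alternative values of the 6 ratios kept their direction, with leave-one-out differences in kappa share from 7.97 to 12.2 percentage points. Many of these could not turn. The groups did not overlap for the kappa share, the IGLC3 share, the light to heavy ratio and the members' share of summed FPKM. Leaving out a library could not reverse those. Counting IGLL5 and IGLL1 with lambda does not enter the alpha ratio, the JCHAIN ratio or the members' share.

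Scaling to equal sums without immunoglobulin genes moved the median log2 fold change of all genes to 0.24, against -0.02 as deposited. The IGHA1 value of 0.28 lay close to that median. How much of the shift came from equal sums and how much from leaving out immunoglobulin genes was not tested. Of all genes, 47 passed as deposited (33 higher in CfzR, 14 lower), 85 under that scaling (71 higher, 14 lower), 27 under a filter at 5 FPKM, which tests fewer genes, and 16 to 260 with a library left out. A lone library is then assumed to vary like the other group. With the replicate number as a block 1242 genes passed, among them 2 of the 8, IGLC2 (adjusted p = 2.53e-05) and IGLC5 (7.15e-04). The labels do not pair the replicates, and the log2 difference between replicates 1 and 2 correlated at 0.252 between CfzR and WT across genes. The cause was not tested. Counting error is unknown, since the values hold no depth.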
